A study of Mus musculus with 22 samples.

Results

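Histone genes were followed across 22 bulk RNA-seq libraries of mouse CD8+ T cells. Members were every gene whose name begins with Hist1h to Hist4h, H2af, H3f3 or H1f and whose scaled count (the deposited value minus 1) was at least 10 in 2 or more libraries. The rule took 40 of 84 histone genes by name: 30 of 64 replication-dependent genes, named Hist, and 10 of 20 variant genes. They are part of 14327 genes that passed the same filter out of 46297 in the table.

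Core histones form the nucleosome and H1 histones bind the DNA between nucleosomes. Replication-dependent histone genes are transcribed mostly in S phase, and their messages usually end in a stem-loop, bound by the protein SLBP, in place of a poly(A) tail. Variant histones such as H2A.Z, macroH2A, H3.3 and H1.0 are made from ordinary polyadenylated messages, not tied to S phase. H2A.X is a known exception, with a stem-loop message as well as a polyadenylated one. T cells divide rapidly after they meet antigen, and histone messages are known to rise with division in lymphocytes.

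The study compared wild-type (WT) and VHL-deficient P14 CD8+ T cells from C57BL/6 mice aged 6 to 12 weeks. P14 cells carry a transgenic T cell receptor for a peptide of lymphocytic choriomeningitis virus, and VHL is the ubiquitin ligase subunit that marks HIF alpha proteins for destruction. In each genotype the groups were day 11 tumor (3 libraries), day 7 tumor not split into subsets (2), day 7 tumor cells labelled Trm (2), day 7 tumor cells labelled nonTrm (2) and day 7 spleen (2). Trm is the usual short form of tissue-resident memory T cell. Each biological replicate pooled 5 mice. The label "V" or "VHL" was read as VHL-deficient from the title of the series. Not given in the sources used here are the tumor type, the allele or Cre driver behind the VHL loss, whether WT mice carried that driver, and the markers that split Trm from nonTrm. Nothing says whether replicates were separate experiments, so p-values measure the spread between these samples.

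Vhl itself had 0 to 32 reads in the 11 VHL-deficient libraries and 60 to 280 in the 11 WT libraries, with no overlap. Libraries held 3375558 to 10211060 reads assigned to genes, of which 26.9% to 45.7% were ribosomal RNA. T cell markers were present in every library (Cd3e 1182 to 2884 scaled counts). VHL-deficient nonTrm replicate 2 stood apart: it had the highest ribosomal share (45.7%), the highest Malat1 (34358 scaled counts, against at most 15027 elsewhere) and 2.73 scaled counts per read, the largest factor. The mitochondrial share was 2.89% to 5.57% in VHL-deficient and 6.07% to 12.1% in WT libraries. Ighm, an immunoglobulin gene, was at 38.4 to 308 in VHL-deficient and 294 to 1070 in WT libraries, while the B cell gene Ms4a1 was at 0 in 15 of 22. H2-Aa, an MHC class II gene of antigen-presenting cells, was at 115, 93.5 and 30.3 in WT and 4.64, 3.84 and 8.39 in VHL-deficient day 11 libraries, and at 112 and 37.99 against 9.42 and 5.43 in Trm, and H2-Eb1 differed likewise. The dendritic cell list of 4 genes summed to 163 to 452 against 160 to 202 at day 11 and 244 to 257 against 73.3 to 245 in Trm. The macrophage list of 6 genes summed to 72.6 to 114 against 43.0 to 45.0 at day 11 and 62.1 to 99.997 against 53.6 to 71.2 in Trm. The part of these genes in the genotype results was not tested. Library titles end in a letter and a number, read here as plate row and column, which the labels do not state. By that reading day 11 libraries lay in column 3, spleen and unsplit day 7 tumor in column 2, and the sorted subsets in column 1. Day and column thus cannot be told apart. In bulk samples, fewer cells of a type and less RNA per cell cannot be told apart either.

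Histone messages were a small and uneven part of these libraries. How far library preparation favored polyadenylated forms was not tested, so read totals and shares need not follow message levels in the cells. The 30 replication-dependent genes together had 272 to 1590 reads per library, and the 10 variants 1876 to 9932. Linker histones supplied most of the first class: Hist1h1e (H1.4) held 28.3% of its reads and Hist1h1c (H1.2) 25.4%, followed by the H4 gene Hist1h4i with 6.72%. Per kilobase of annotated exon, the mean level over all libraries was highest for the H3.3 gene H3f3b (1335 scaled counts per kb), followed by the H2A.Z genes H2afz (401) and H2afv (241) and by H2afx (177). Hist1h1c reached 130 per kb, Hist1h1e 129, H2afj 119 and Hist1h4i 81.9. Lower still came H2afy (56.7), Hist1h2ab (53.6), H3f3a (50.7), Hist1h1b (49.7) and H1f0 (48.0).

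In summed scaled counts, the replication-dependent class reached 2149 and 1067 in WT Trm libraries and 1870 and 886 in WT unsplit tumor libraries. WT day 11 tumor libraries held 860 to 966 and VHL-deficient day 11 libraries 543 to 755, so these groups did not overlap. VHL-deficient Trm libraries held 764 and 449. The other sums were 665 and 700 in WT nonTrm, 457 and 1048 in VHL-deficient nonTrm, 886 and 1870 against 1062 and 820 in unsplit WT and VHL-deficient tumor, and 426 and 463 against 608 and 550 in WT and VHL-deficient spleen. The 2 highest sums were thus in WT day 7 tumor libraries, and in both of these groups the other replicate was far lower.

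**Figure D1:**
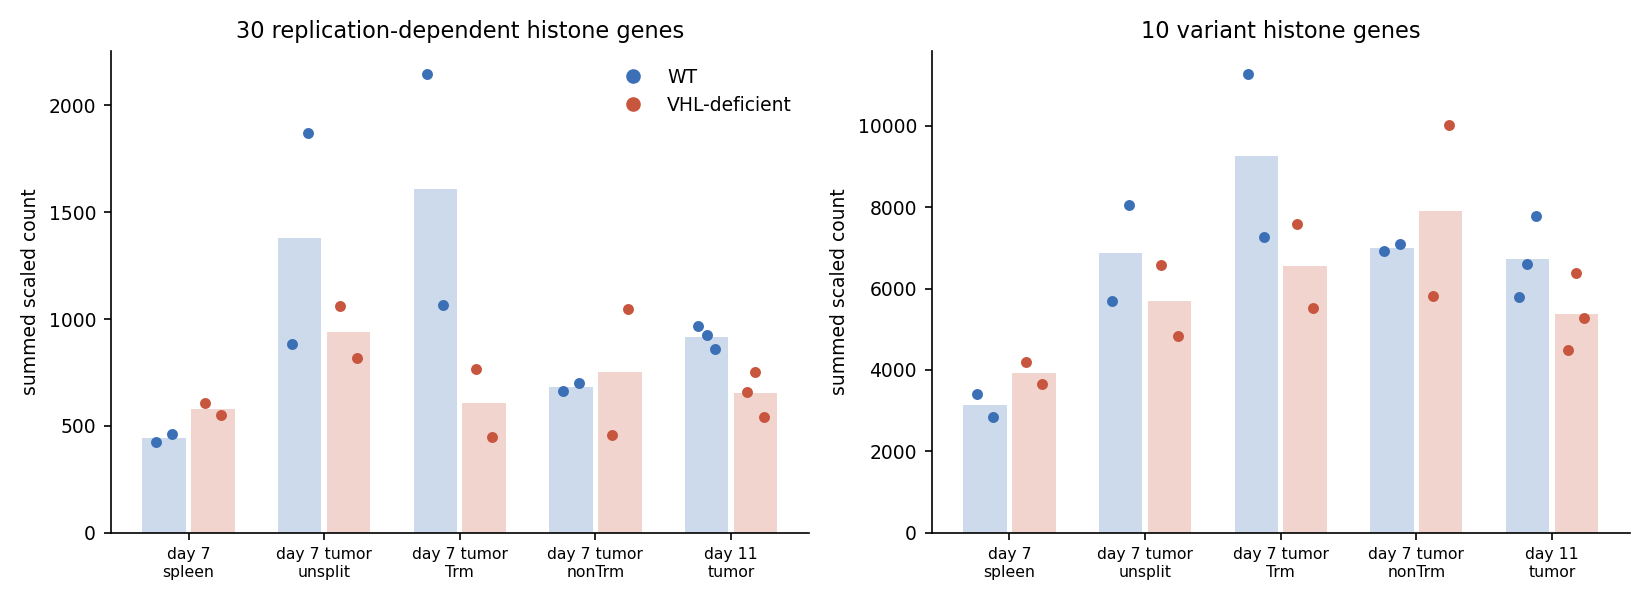
Summed scaled counts of 30 replication-dependent (left) and 10 variant histone genes (right) by group. Bars are group means, points are libraries, blue is WT and red is VHL-deficient. In Trm cells the WT libraries sit at 1067 and 2149 on the left and the VHL-deficient libraries at 449 and 764.

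The first comparison asked how VHL loss went with histone expression in each setting. In Trm cells, 9 of 30 replication-dependent and 3 of 10 variant genes fell in VHL-deficient cells and none rose, where 5.03% of all genes fell and 5.07% rose (limma, Benjamini-Hochberg adjusted p under 0.05). In day 11 tumor, 3 of 30 and 3 of 10 fell and none rose, where 2.39% of all genes fell and 4.47% rose. In unsplit day 7 tumor 1 variant fell, where 0.223% of all genes fell and 1.68% rose. In spleen 1 variant rose, where 2.44% of all genes rose and 0.733% fell. In nonTrm cells 0 of 40 passed, where 2.32% of all genes did, and 4 members had an unadjusted limma p under 0.05. Counts at an unadjusted p, here and below, are not set against the share of all genes at that threshold.

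On a log2(scaled count + 1) scale, the median log2 difference of the replication-dependent class, VHL-deficient minus WT, was -1.66 in Trm, -0.91 in unsplit tumor, -0.85 in day 11 tumor, -0.28 in nonTrm and -0.00 in spleen. Over all genes it was between 0.02 and 0.09. The variants had medians of -0.84 in Trm, -0.63 in unsplit tumor, -0.50 in day 11 tumor, 0.03 in nonTrm and 0.24 in spleen. Without VHL-deficient nonTrm replicate 2, the nonTrm medians were -0.81 for the replication-dependent class and -0.45 for the variants, against 0.08 for all genes. Whether the genotype difference itself varied with subset was tested as an interaction: 0 of 40 members passed, as did 0 of all genes (13 members had an unadjusted limma p under 0.05). Without VHL-deficient nonTrm replicate 1, this interaction would rest on replicate 2 alone in that group, the library that stood apart. Without replicate 2 instead, the interaction medians were -1.33 for the replication-dependent class and -0.47 for the variants. With all libraries they were -1.47 and -0.97.

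The filter bears on these medians and counts. Of the 30 replication-dependent members, 8 reached the minimum only in WT libraries (Hist1h2af, Hist1h2ak, Hist2h2ac, Hist1h3a, Hist1h3b, Hist1h2ag, Hist1h2an and Hist1h3f), 5 of them only in WT Trm and WT unsplit tumor libraries, and 1 (Hist4h4) only in VHL-deficient libraries. A lower VHL-deficient level was favored for the 8, and 13 of 30 reached the minimum only in tumor libraries. Among the 15 members with a mean of at least 10 over all 22 libraries, a split made after seeing the data, the medians were -1.88 in Trm (6 fell), -0.95 in unsplit tumor, -0.87 at day 11 (2 fell), 0.08 in nonTrm and 0.06 in spleen. All 10 variants reached the minimum in libraries of both genotypes.

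**Figure D2:**
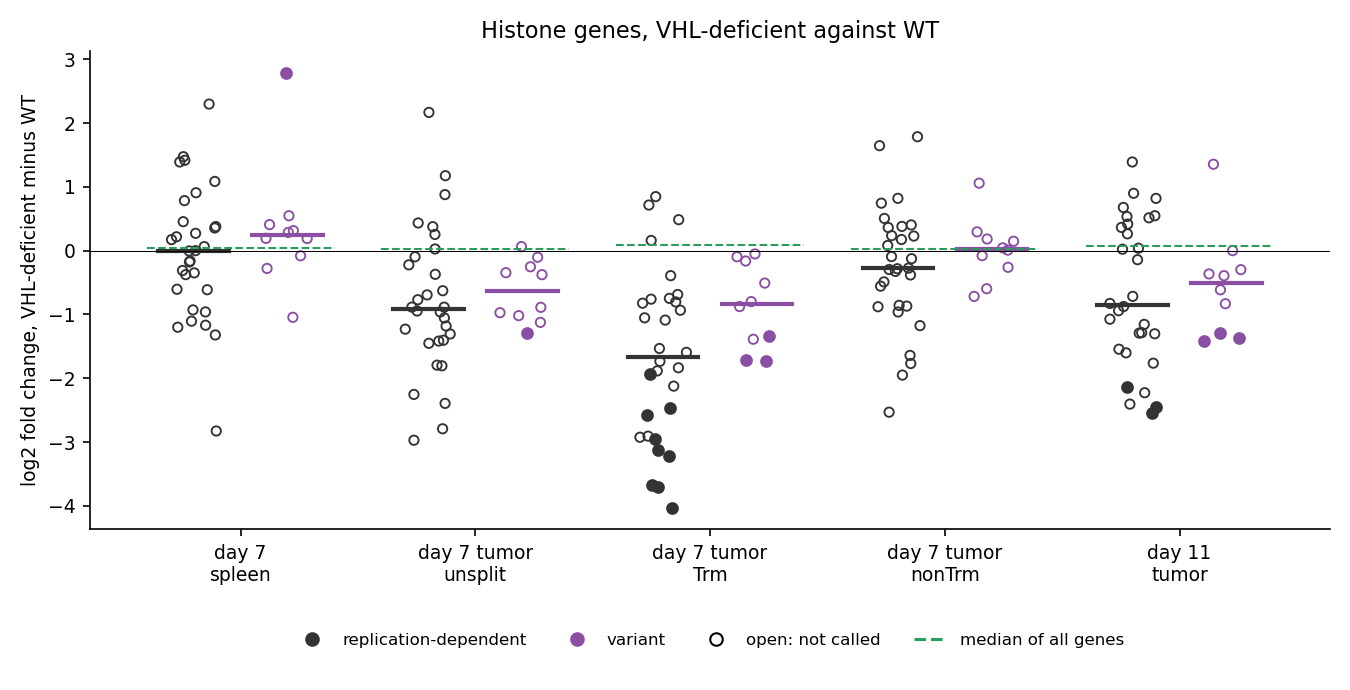
Log2 difference, VHL-deficient minus WT, of each histone gene in 5 settings. Dark points are replication-dependent genes, purple points variants, filled points passed the test, short solid lines are class medians and green dashed lines the median of all genes. All 12 filled points in Trm cells lie below 0, and the filled point in spleen is H1f0.

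The Trm result rests on particular libraries. Without VHL-deficient Trm replicate 2, 0 of the 12 members passed, and H2afx had an adjusted p of 0.074 (limma, Benjamini-Hochberg). Over all genes that exclusion left 165 that rose and 69 that fell, from 726 and 720. Without WT Trm replicate 1, 2 members passed, H2afx and Hist2h2ac. At day 11, 1 to 2 members passed when any library of that comparison other than WT replicate 2 was dropped, and H2afx was among them each time. Without VHL-deficient nonTrm replicate 2, which lies outside both comparisons but shares in the estimate of the spread, 14 members passed in Trm and 9 at day 11, while the genes that rose and fell over the whole table went to 1130 and 1228 in Trm and from 641 and 343 to 896 and 653 at day 11. With libraries scaled by reads outside ribosomal RNA and mitochondrial genes, 8 replication-dependent genes and 3 variants fell in Trm, and 3 of each class at day 11.

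Among the variants, H2afx fell in 3 of the 5 settings. It encodes H2A.X, which is phosphorylated at DNA breaks, and lies at chr9:44334694-44336077 (mm10, plus strand). In day 11 tumor the WT libraries held 385, 307 and 437 scaled counts and the VHL-deficient libraries 148, 134 and 136. H2afx fell by 1.41 on the log2 scale there (SE 0.26, adjusted p 0.00199). In Trm cells it was at 576 and 449 in WT and at 200 and 116 in VHL-deficient libraries. That is a log2 difference of -1.73 (adjusted p 0.0019). In unsplit tumor the values were 373 and 576 against 199 and 181 (-1.28, adjusted p 0.0411), a call lost without either VHL-deficient library or without WT replicate 2. In nonTrm cells they were 321 and 187 against 159 and 139 (-0.72, adjusted p 0.284), and in spleen 139 and 106 against 64.8 and 52.5 (-1.04, adjusted p 0.091). WT and VHL-deficient libraries did not overlap in any of the 5 settings, and how many of all genes were separated in this way was not computed. An annotated gene, Gm44335, overlaps H2afx exons on the other strand, and use of strand in the counting is not stated in the labels.

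Ordered by group mean, H2afx was highest in WT Trm (512 ± 89.3, SD, n = 2), followed by WT unsplit tumor (475 ± 144), WT day 11 tumor (376 ± 65.4) and WT nonTrm (254 ± 94.8). WT unsplit tumor overlapped both WT Trm and WT day 11 tumor, and WT day 11 tumor overlapped WT nonTrm. The VHL-deficient tumor groups followed between 190 and 139, and WT spleen (122 ± 23.6) overlapped the VHL-deficient Trm, nonTrm and day 11 tumor ranges. VHL-deficient spleen came last (58.7 ± 8.71), below every other library.

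Both H2A.Z genes fell in day 11 tumor and in Trm cells. H2afz (chr3:137864487-137866922) was at 832, 794 and 1280 in WT day 11 tumor and at 347, 374 and 438 in VHL-deficient libraries, a fall of 1.30 on the log2 scale (SE 0.35, adjusted p 0.0281). In Trm cells it was at 2196 and 1191 in WT and 640 and 380 in VHL-deficient libraries (-1.71, adjusted p 0.0143). H2afv (chr11:6427229-6444443) was at 547, 482 and 552 against 199, 183 and 230 at day 11 (-1.37, adjusted p 0.0141). In Trm it was at 996 and 505 against 367 and 212 (-1.34, adjusted p 0.0389). In unsplit tumor neither gene was called, although the genotypes did not overlap. H2afz was at 705 and 1540 in WT against 498 and 636, and H2afv at 346 and 701 against 233 and 253. In spleen neither gene differed past the threshold, with log2 differences of 0.31 for H2afz and -0.08 for H2afv. In nonTrm cells the VHL-deficient libraries straddled the WT ones for both genes, with 291 and 799 against 545 and 476 for H2afz.

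H1f0, which encodes the linker histone H1.0 found mostly in cells that have stopped dividing, behaved differently. In spleen it was at 156 and 174 scaled counts in VHL-deficient libraries and at 26.4 and 19.9 in WT libraries. It rose by 2.79 on the log2 scale (SE 0.46, adjusted p 0.000748). In tumor its genotype difference did not pass: -0.10 in unsplit tumor, -0.36 at day 11, -0.51 in Trm and 1.06 in nonTrm. The difference between its spleen and unsplit tumor effects was -2.90 (SE 0.65), with an unadjusted p of 0.000251 and an adjusted p of 0.12 (limma). Gm49544 overlaps H1f0 exons on the other strand.

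The remaining variants gave no genotype call. H3f3b, an H3.3 gene and the most abundant member, had log2 differences between -0.10 and 0.41 over the 5 settings. Those of H3f3a, the other H3.3 gene, ran from -0.80 in Trm to 0.30 in nonTrm. The macroH2A gene H2afy lay between -0.35 and 0.29, and H2afj between -0.97 and 0.19. H3f3c and H2afy3, annotated as processed pseudogenes, had lowest and highest levels of 4.79 and 41.9, and 0 and 16.1, and differences between -1.39 and 0.55, and -1.12 and 1.35. H3f3c shares 73.8% of its 50-base stretches with other genes, so its counts are uncertain.

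**Figure D3:**
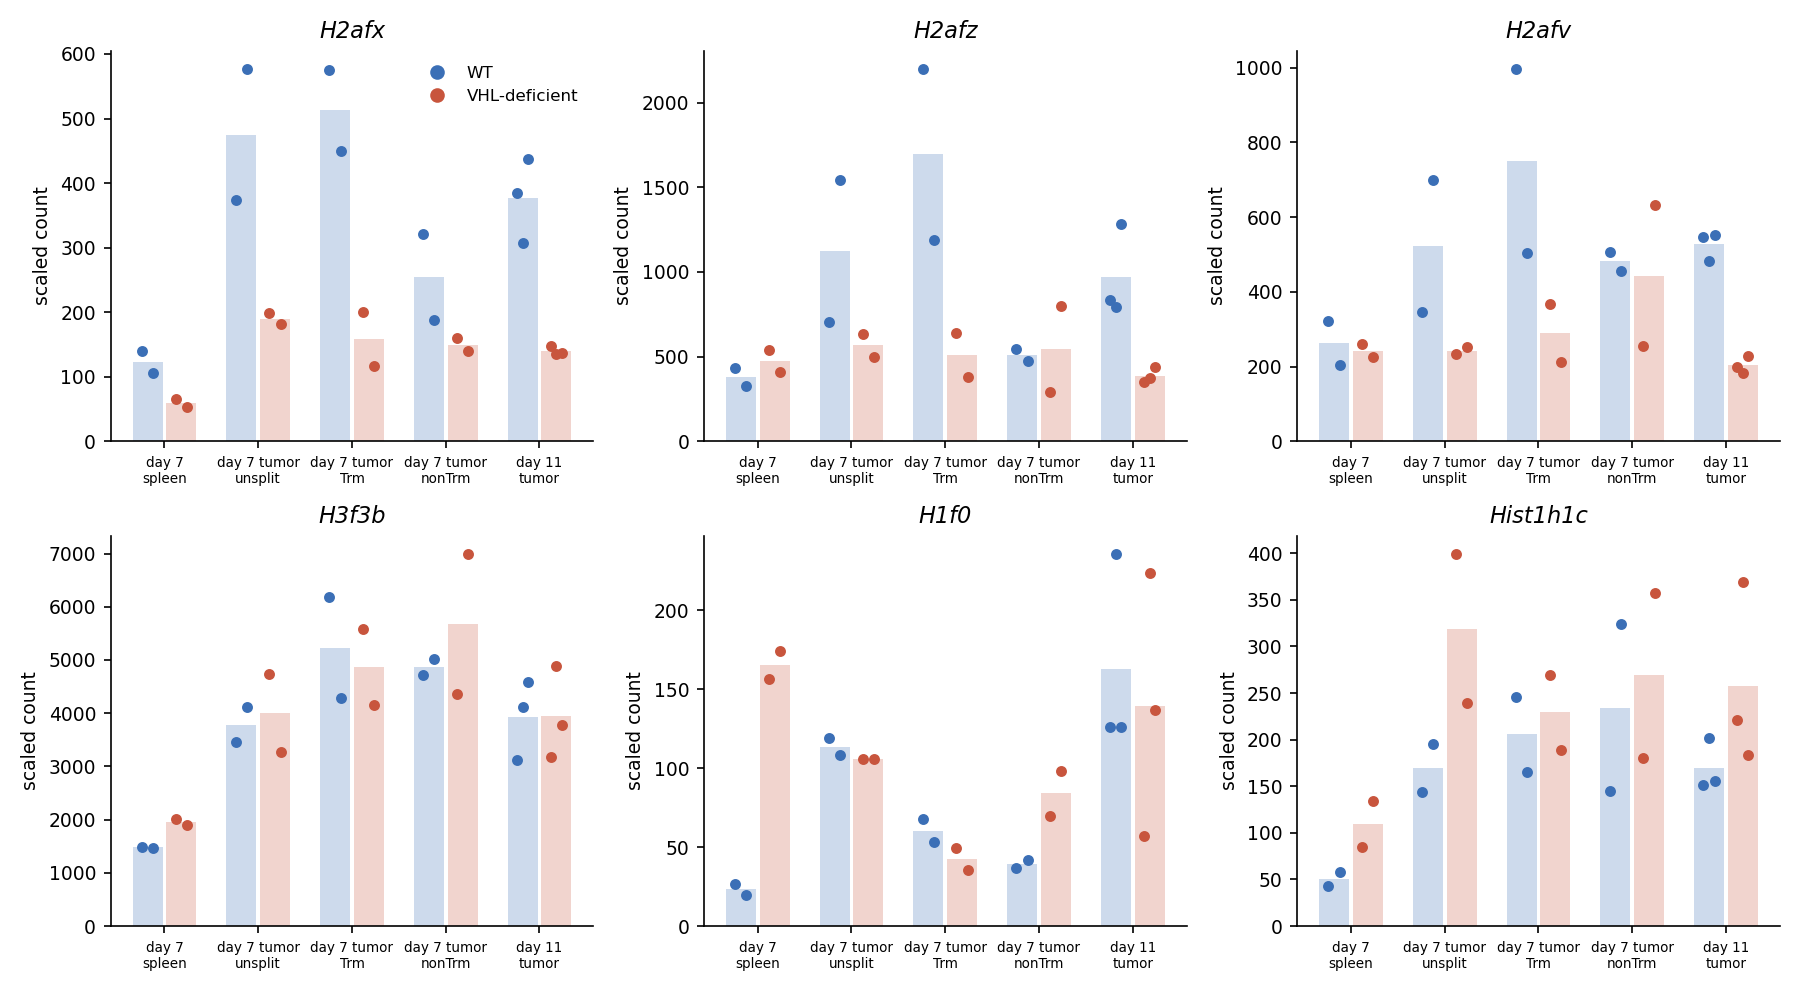
Scaled counts of 6 histone genes by group. Bars are group means, points are libraries, blue is WT and red is VHL-deficient. H2afx is lower in every VHL-deficient library than in the WT libraries of the same setting, while H1f0 is high in the VHL-deficient spleen libraries (156 and 174).

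Among replication-dependent genes, the linker histone Hist1h1e (chr13:23620629-23622558, minus strand) had the most reads. In Trm cells it was at 845 and 297 in WT and at 210 and 81.5 in VHL-deficient libraries (log2 difference -1.93, SE 0.51, adjusted p 0.0198). At day 11 it was at 359, 376 and 220 against 154, 105 and 124 (-1.28, adjusted p 0.068), groups that did not overlap although the test was not passed. Its annotated exons overlap those of Hist1h2be on the same strand, so reads there can be assigned to either. The second linker gene, Hist1h1c (chr13:23738808-23740367), went the other way without a call. Its mean was higher in VHL-deficient libraries in all 5 settings, with log2 differences of 0.16 in Trm, 0.23 in nonTrm, 0.55 at day 11, 0.88 in unsplit tumor and 1.09 in spleen. Hist1h1b (H1.5) was at 140 and 67.9 in WT Trm and 33.5 and 6.99 in VHL-deficient Trm libraries (-2.57, adjusted p 0.0226).

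The core histone calls came from few reads. The H2A gene Hist1h2ab was at 123 and 66.5 in WT Trm and 16.8 and 0.776 in VHL-deficient Trm libraries, a log2 difference of -4.03 (adjusted p 0.00555). WT and VHL-deficient values of Hist1h2ab did not overlap in any of the 5 settings, but the difference was called in Trm alone (day 11 -2.23, adjusted p 0.061). Few reads lay behind this in spleen (1 and 2 VHL-deficient against 3 and 7 WT) and nonTrm (4 and 0 against 19 and 6). How many of all genes were separated in this way was not computed. Hist1h2ae, also an H2A gene, was at 97.3 and 38.7 against 11.5 and 3.11 in Trm (-3.12, adjusted p 0.00397). Hist2h2ac, an H2A gene outside the main cluster, fell in both settings. At day 11 it was at 7.29, 20.6 and 18.2 against 4.64, 3.07 and 0.762 (-2.13, adjusted p 0.0357), and in Trm 48 WT reads stood against 2 VHL-deficient reads, a ratio of 25.5 (exact 95% counting interval 6.69 to 217). For the H2A gene Hist1h2ak, 33 reads stood against 1 in Trm, a ratio of 35.1 (5.88 to 1430, counting error only). Both genes reached the filter's minimum only in WT libraries, which favored a lower VHL-deficient value.

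The H4 gene Hist1h4d was at 52.9, 24.6 and 62.3 in WT and 3.48, 9.99 and 9.91 in VHL-deficient day 11 libraries. It fell by 2.45 on the log2 scale (SE 0.67, adjusted p 0.0317), and in Trm the difference was -2.94 (adjusted p 0.0275). The H3 gene Hist1h3c was at 31.0, 16.6 and 25.1 against 3.48, 3.07 and 3.05 at day 11 (-2.55, adjusted p 0.0349). In Trm it was at 48.6 and 34.3 against 10.5 and 0.776 (-3.21, adjusted p 0.0232). The last Trm call, the H2B gene Hist1h2bj (-2.47, adjusted p 0.0485), was lost without any one of the 4 Trm libraries.

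Among the more abundant core histone genes without a genotype call, Hist1h4i had log2 differences of -1.88 in Trm (adjusted p 0.095) and -0.94 at day 11. The H2A gene Hist3h2a was at 0.85 in Trm and 0.68 at day 11, and the H2B gene Hist1h2bc at -0.39 and 0.26. Hist1h2bg (H2B) was at -1.83 in Trm and 2.17 in unsplit tumor, and Hist1h3e (H3) at -2.12 in Trm and 0.02 at day 11. Direction within the class was mixed: 18 of 30 genes were negative at day 11, 18 in nonTrm and 15 in spleen, against 26 in Trm and 23 in unsplit tumor. Hist1h1b, Hist1h2ab, Hist1h2ak, Hist1h2ai, Hist1h2bj, Hist1h3a and Hist1h3c had a lower VHL-deficient mean in all 5 settings. The share of all genes that did so was not computed. Of the genes named, Hist1h2ak and Hist1h3a reached the filter's minimum only in WT libraries. Some signs rest on few reads: Hist1h2bj had 2 and 0 reads in WT spleen and 0 in both VHL-deficient spleen libraries.

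The annotated ends of these genes separate them further. A 16-base stem-loop of the histone kind was searched in every annotated transcript as a left arm of 6 bases (GG, 3 pyrimidines and T), a loop of 4 bases (T, a pyrimidine, T and any base) and a right arm that pairs with the left in full. It was found in 22 of 30 replication-dependent members and in 1 of 10 variants, H2afx. Among all annotated genes 56 held it (0.101%), and 44 of them are among the 84 histone genes by name in the deposited data. Whether the rest are histone genes absent from those data was not examined. The most common form, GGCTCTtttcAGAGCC, was shared by 14 members. The stem-loops of genes described above are shown with 5 bases on each side, 5′ to 3′ as DNA, with the stem in capitals.
Hist1h1e: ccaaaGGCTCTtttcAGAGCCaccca
Hist1h1c: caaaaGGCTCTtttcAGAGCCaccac
Hist1h2ab: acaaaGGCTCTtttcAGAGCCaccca
Hist1h3c: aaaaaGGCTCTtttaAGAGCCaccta
Hist1h4d: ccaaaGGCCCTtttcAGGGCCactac
Hist1h4i: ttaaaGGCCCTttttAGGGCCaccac
Hist2h2ac: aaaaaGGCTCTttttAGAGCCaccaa
H2afx: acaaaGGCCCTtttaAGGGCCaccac
In mm10 the 16 bases lie at chr13:23621782-23621797 for Hist1h1e, chr13:23751572-23751587 for Hist1h2ab, chr3:96220418-96220433 for Hist2h2ac and chr9:44335240-44335255 for H2afx. Of the genes shown, both H4 genes and H2afx have the left arm GGCCCT, and the H1, H2A and H3 genes have GGCTCT.

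In 7 members no annotated transcript went more than 100 bases past the loop, and in 15 at least 1 did. In the other 8 no loop was found. This need not mean that the gene lacks it, since a short annotated transcript, such as 393 bases in Hist1h2ak, may stop before it. The 7 that end at the loop held 7.84% of the class's reads, the 15 that extend past it 81.0% and the 8 with none found 11.2%. The genes that end at the loop had a median log2 difference of -2.13 at day 11, with 0 of 7 positive and 2 that fell, and of -2.47 in Trm, with 4 that fell. The genes that extend past it had medians of 0.36 at day 11 (10 of 15 positive, 1 fell) and -1.09 in Trm (3 fell). Those with no loop found lay at -1.06 and -1.75. These are descriptions without a test. The grouping also follows abundance, since the mean scaled count had a median of 6.75 in the first set and 13.2 in the second. It follows the filter as well. Hist2h2ac, Hist1h3a, Hist1h3b and Hist1h2ag of the first set reached the minimum only in WT libraries, against Hist1h3f of the second. That favored lower VHL-deficient values in the first set. All of the first set but Hist1h3c reached it only in tumor libraries, which favored higher tumor values.

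**Figure D4:**
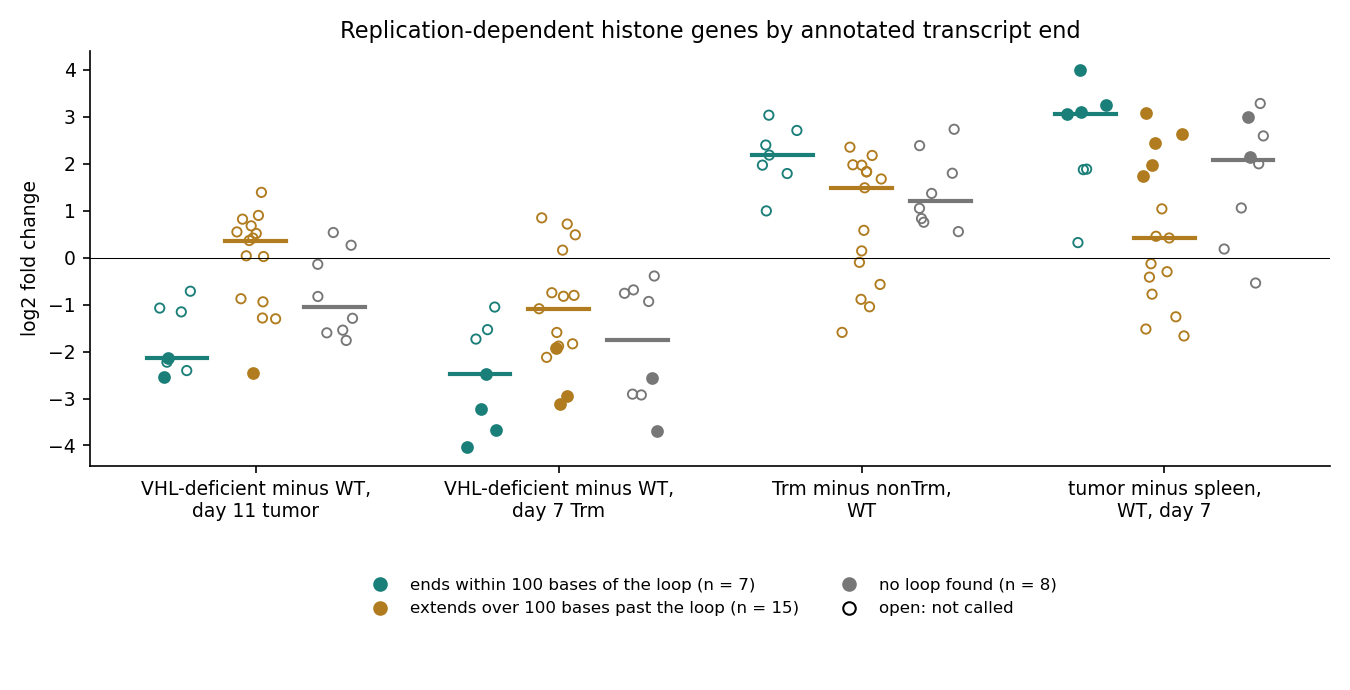
Log2 difference of 30 replication-dependent histone genes in 4 comparisons, split by where the annotated transcript ends. Filled points passed the test and lines are medians. At day 11 the 7 genes that end near the loop all lie below 0 with a median of -2.13, while the 15 that extend past it have a median of 0.36.

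Promoters of the 2 classes differ in their letters. RefSeq promoters on GRCm38.p6, from 250 bases before to 50 after the start, matched 25 of 30 replication-dependent members and 8 of 10 variants. Searched on both strands, CCAAT was in 92% of the first, 62.5% of the second and 37.9% of 27025 promoters. TATAAA or TATATA was in 72%, 12.5% and 17.8%, and the octamer ATTTGCAT in 24%, 12.5% and 1.75%. A match is a description and not a bound site, and matches may overlap. The 150 bases before the start are shown for genes with and without genotype calls, with matches to any of these motifs in capitals.
Hist1h1e: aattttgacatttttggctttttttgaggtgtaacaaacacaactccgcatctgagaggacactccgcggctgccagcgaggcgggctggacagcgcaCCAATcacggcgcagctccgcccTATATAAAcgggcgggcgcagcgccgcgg
Hist1h2ab: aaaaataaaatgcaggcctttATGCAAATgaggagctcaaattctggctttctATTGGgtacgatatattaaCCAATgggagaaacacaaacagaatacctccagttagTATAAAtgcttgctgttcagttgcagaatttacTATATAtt
Hist1h4d: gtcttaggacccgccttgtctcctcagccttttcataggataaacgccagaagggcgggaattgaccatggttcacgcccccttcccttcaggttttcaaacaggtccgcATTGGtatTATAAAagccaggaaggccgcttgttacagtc
H2afz: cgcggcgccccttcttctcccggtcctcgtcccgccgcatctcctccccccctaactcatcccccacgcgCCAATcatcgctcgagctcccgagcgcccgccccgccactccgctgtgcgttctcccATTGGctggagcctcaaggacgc
H3f3b: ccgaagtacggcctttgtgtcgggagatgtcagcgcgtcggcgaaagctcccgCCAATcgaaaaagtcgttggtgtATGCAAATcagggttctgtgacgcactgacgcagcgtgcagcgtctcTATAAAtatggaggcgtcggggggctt
They lie at chr13:23622559-23622708 (minus strand, Hist1h1e), chr13:23750938-23751087 (plus, Hist1h2ab), chr13:23581418-23581567 (plus, Hist1h4d), chr3:137864337-137864486 (plus, H2afz) and chr11:116024505-116024654 (minus, H3f3b). Hist1h1e, Hist1h2ab and Hist1h4d each hold a TATA match. H3f3b is the variant with both a TATA match and an octamer, and it had no genotype call, while H2afz holds neither.

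The second comparison set unsplit day 7 tumor against day 7 spleen in each genotype. In WT cells 11 of 30 replication-dependent and 4 of 10 variant genes were higher in tumor and none was lower, where 13.2% of all genes rose and 8.31% fell. In VHL-deficient cells 4 and 2 were higher and 1 variant was lower, where 9.98% rose and 5.47% fell. Median log2 differences were 1.80 for the replication-dependent class and 0.71 for the variants in WT, and 0.61 and -0.32 in VHL-deficient cells, against 0.08 and 0.06 for all genes. With genes at 0 reads in a group set to their bound, the class medians were 1.73 and 0.53. The 13 members that reached the filter's minimum only in tumor libraries favor a higher tumor value, and among the 15 with a mean of at least 10 the medians were 1.73 and 0.66. These comparisons reuse the unsplit tumor and spleen libraries of the genotype comparisons above.

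Scaling changed how this set stood against other genes. When libraries were scaled by reads outside ribosomal RNA and mitochondrial genes, the median over all genes moved from 0.08 to -0.29 in WT and from 0.06 to -0.13 in VHL-deficient cells. The split of all genes became 1246 that rose and 2100 that fell in WT, from 1889 and 1190, and 1050 and 1163 in VHL-deficient cells, from 1430 and 783. Members under that scaling numbered 9 replication-dependent genes that rose in WT, with 4 variants that rose and 1 that fell, and in VHL-deficient cells 3 and 2 that rose and 1 and 2 that fell. Leaving out WT tumor replicate 2 took the WT count from 15 to 4, leaving out WT spleen replicate 2 took it to 7, and leaving out VHL-deficient tumor replicate 1 took the VHL-deficient count from 7 to 1.

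H2afx was higher in tumor in both genotypes, at 373 and 576 against 139 and 106 in WT spleen (log2 difference 1.92, SE 0.32, adjusted p 0.000239) and at 199 and 181 against 64.8 and 52.5 in VHL-deficient spleen (1.69, adjusted p 0.0011). H3f3b was at 3451 and 4118 in WT tumor and 1489 and 1467 in WT spleen (1.35, adjusted p 0.00307), and differed by 1.01 in VHL-deficient cells (adjusted p 0.0268). H1f0 was at 119 and 108 in WT tumor and 26.4 and 19.9 in WT spleen (2.26, adjusted p 0.0016), while in VHL-deficient cells tumor libraries (106 and 106) lay below spleen (156 and 174) without a call (-0.64, adjusted p 0.388). These 3 WT results and that of H2afx in VHL-deficient cells kept their call under every exclusion and alternative run. H2afz was higher in WT tumor (1.47, adjusted p 0.0186) but not called in VHL-deficient cells (0.26). The macroH2A gene H2afy, in contrast, was lower in VHL-deficient tumor (325 and 247) than in VHL-deficient spleen (639 and 496), by -0.99 (adjusted p 0.0218).

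Linker histones led the replication-dependent calls by abundance. Hist1h1c was at 144 and 195 in WT tumor and 43.1 and 57.6 in WT spleen (1.73, adjusted p 0.00694), and differed by 1.52 in VHL-deficient cells (adjusted p 0.0194). Hist1h1e was at 336 and 706 against 131 and 117 in WT (1.97, adjusted p 0.00935) and was not called in VHL-deficient cells (0.66). Hist1h2ae was at 31.6 and 58.8 against 2.78 and 6.29 in WT (3.07, adjusted p 0.00177). Several core genes had 3 reads or fewer in spleen. Hist1h2ag had 19 reads in WT tumor and 0 in WT spleen, at least 4.21-fold higher against a floor of 3 reads per library. Hist1h2bj had 20 reads against 2 in WT (ratio 12.5, 95% counting interval 3.03 to 110), and Hist1h2bj and Hist1h3c each had 17 reads against 0 in VHL-deficient cells, at least 2.02-fold higher. Hist1h2ab had 79 reads against 10 in WT (log2 difference 3.25, adjusted p 0.0107). No member passed the interaction of genotype and tissue, where 0.0698% of all genes did (limma, and 3 members at an unadjusted p under 0.05).

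In the comparison of the tumor subsets, no member passed in either genotype, where 0.300% of all genes did in WT and 0.00698% in VHL-deficient cells. In WT cells 25 of 30 replication-dependent genes were higher in Trm, with a median log2 difference of 1.73 against 0.04 for all genes. An unadjusted limma p under 0.05 was found for 17 members, a count not set against the share of all genes. H2afz was at 2196 and 1191 in Trm and 545 and 476 in nonTrm (1.67, adjusted p 0.0951). Hist1h1e was at 845 and 297 against 193 and 101 (1.83, adjusted p 0.124), and Hist1h2ab at 123 and 66.5 against 14.3 and 7.15 (3.03, adjusted p 0.135). The WT Trm libraries of these genes lay above both nonTrm libraries, with a large gap between the replicates. In VHL-deficient cells the class median was -0.38 and that of the variants -0.23, and 1 member had an unadjusted p under 0.05. Without VHL-deficient nonTrm replicate 2 these medians turned to 0.23 and 0.08. Both subset comparisons reuse libraries of the Trm and nonTrm genotype comparisons.

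Between day 11 and day 7 unsplit tumor, no member passed in WT or VHL-deficient cells, nor did any of all genes (percentage called 0). The replication-dependent medians were -0.66 in WT and -0.62 in VHL-deficient cells and those of the variants -0.05 and -0.11, and 1 and 2 members had an unadjusted limma p under 0.05. The interaction of genotype and day also called 0% of genes, and 1 member had an unadjusted p under 0.05.

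Genes that act with histones were read from lists. Slbp, the stem-loop binding protein, fell in VHL-deficient day 11 tumor from 1289 ± 133 to 760 ± 98.7 scaled counts (SD, n = 3; log2 difference -0.77, adjusted p 0.0222) and in VHL-deficient Trm cells (-0.82, adjusted p 0.035). It was higher in WT tumor than in WT spleen (1.18, adjusted p 0.00159), and not called in VHL-deficient cells (0.68, adjusted p 0.0643). It was the single call of 15 histone message processing genes in each of the 2 genotype comparisons, where 2.39% of all genes fell at day 11 and 5.03% in Trm, so 1 of 15 is not far from the share of all genes. Cenpa, the centromeric H3, fell in VHL-deficient Trm cells (-0.96, adjusted p 0.0198) and was higher in tumor than in spleen in WT (2.67) and VHL-deficient cells (2.73).

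Of 28 histone chaperone genes, 11 fell and 1 rose in VHL-deficient Trm cells and 6 fell and 1 rose at day 11. Over all genes 5.03% fell and 5.07% rose in Trm, and 2.39% and 4.47% at day 11. Those with the smallest p were Set, Dnajc9 and Nasp in Trm and Dnajc9, Asf1b and Nap1l1 at day 11. Nasp carries H3-H4 and H1, Asf1b passes H3-H4 to assembly factors, and Nap1l1 binds H2A-H2B. Of 38 DNA replication genes, 19 fell in Trm, 20 at day 11 and 0 in unsplit tumor and nonTrm, against 5.03%, 2.39%, 0.223% and (either direction) 2.32% of all genes. Tyms, which makes thymidylate, fell by 2.28 in Trm and by 1.90 at day 11 on the log2 scale. In VHL-deficient spleen Ccne2 fell by 2.91 (limma, adjusted p 0.00718), with 3 reads against 45. The chaperone gene Chaf1b fell in VHL-deficient nonTrm cells (-1.81, adjusted p 0.0291). Within WT cells, Tyms (2.06, adjusted p 0.0191), Tk1 (2.11, 0.0315) and Pola1 (1.36, 0.0463) were higher in Trm than in nonTrm. So was the chaperone gene Anp32e (1.18, 0.0338), where 0.300% of all genes were called. In tumor against spleen, 34 of 38 replication genes were higher in WT, where 13.2% of all genes were, and 29 in VHL-deficient cells, where 9.98% were, with 1 lower.

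Library by library, the histone and replication sums were not in the same order. WT day 11 libraries had 24953 to 29515 summed scaled counts of replication genes and VHL-deficient ones 10079 to 13901, groups that did not overlap, as was the case for histones. WT Trm replicate 2 had the highest replication sum (39830) but 1067 in histones, while replicate 1 had 28975 and 2149. VHL-deficient nonTrm replicate 2 had the lowest replication sum of all (4976) with 1048 in histones, from 384 histone reads. Without that library, the lowest replication sums were those of the spleen, at 5742 to 7477.

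**Figure D5:**
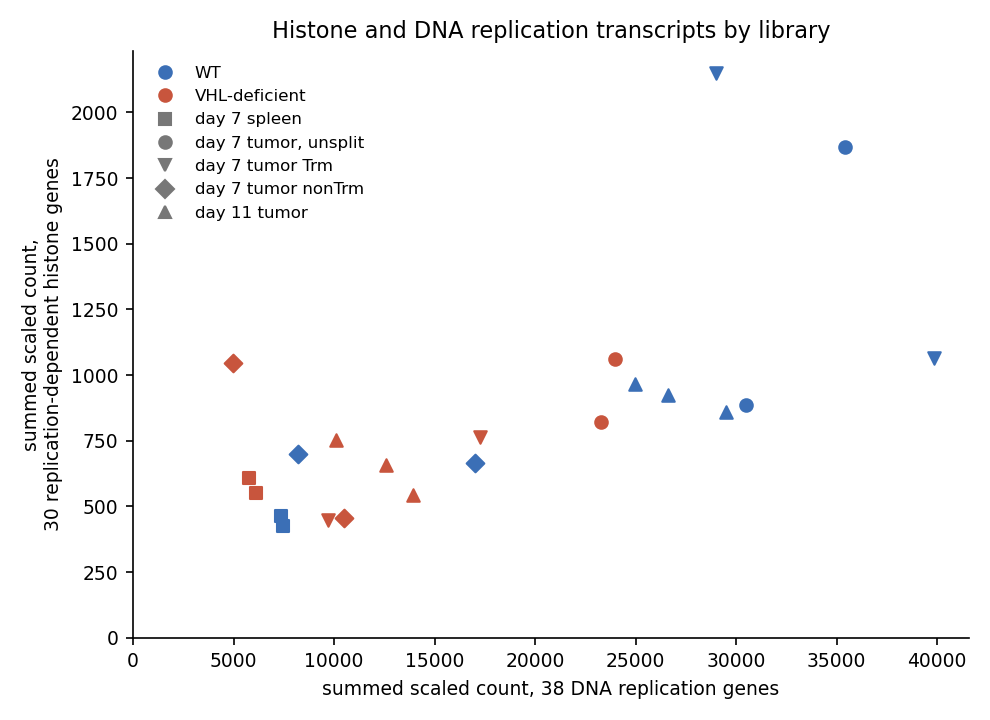
Summed scaled counts of 30 replication-dependent histone genes (vertical axis) against those of 38 DNA replication genes (horizontal axis), 1 point per library, with color for genotype and shape for setting. VHL-deficient nonTrm replicate 2 stands at 4976 and 1048, and WT Trm replicate 1 at 28975 and 2149.

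Many of these genes are near copies. In 11 of 30 replication-dependent members over 50% of the 50-base stretches also occur in another gene, up to 94.0% in Hist1h2af, and 4 members overlap another gene's exons on the same strand. Hist1h1b and Hist2h2be share no such stretch. Exons of 10 replication-dependent members and 6 variants overlap a gene on the other strand. The labels do not state how shared reads were assigned, so single-gene values of such members, among them Hist1h2ab, Hist1h2ak, Hist2h2ac, Hist1h2bj and Hist1h2ag, are uncertain.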

How the data were processed

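Sorted cells were lysed, total RNA was captured on beads and libraries were made with a PrepX kit, per the labels' protocols. The authors deposited 1 table of scaled signal per gene. STAR, featureCounts, DESeq and the build mm10 are listed, without versions, per the submitters' processing notes. The header names 55 samples, and 0 columns were unmapped. After subtraction of 1, each library's values were whole steps of a single factor (tolerance 0.01 reads), which gave reads. Members, lists and tests were chosen with earlier results of these data known.

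Genes at 10 or more in 2 or more libraries were tested with limma 3.58.1 (R 4.3.3) on log2(scaled count + 1): 1 fit of 10 group means, 12 residual degrees of freedom, trend, 14 comparisons, two-sided, Benjamini-Hochberg over all genes, calls at adjusted p under 0.05. Named are all variants, the 2 most abundant genes per histone class, and up to 6 called per comparison by smallest adjusted p, with exceptions chosen after their values were seen. From related lists, up to 3 calls per comparison, Slbp and Cenpa are named. Other software was pandas 2.3.3, matplotlib 3.10.9, numpy 2.4.6 and Python 3.11.15. The fit was also run on simulated counts with 1 fixed dispersion, and only genes above the median mean were changed. That run cannot show how the fit performs on low-count genes or uneven replicates. Alternatives were TMM, scaling outside ribosomal and mitochondrial genes, filters, pseudocounts, no trend, library weights, a replicate block, fewer groups, voom and each library left out. Floors and intervals cover counting error only.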

Additional observations from a re-analysis of the deposited data

How the results depend on the processing

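Of 40 called results for named histone genes, 18 kept their call under every alternative other than leaving out a library, 7 kept it without each library in turn and 5 under both, and 0 changed direction. No filter on low counts lost 13, fitting only the groups compared 12, the replicate block 10, no trend 7, voom 4, scaling outside ribosomal and mitochondrial genes 4, pseudocount 0.5 2, TMM 1, library weights 1 and pseudocount 5 1; the causes were not tested.

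The counts of histone genes called moved as follows. Without a filter they were 2 at day 11 (from 6), 0 in unsplit tumor (from 1) and 4 for VHL-deficient tumor against spleen (from 7). With library weights they were 11 at day 11 and 11 for VHL-deficient tumor against spleen. With only the groups compared they were 12 at day 11, 0 in unsplit tumor, 0 in spleen (from 1), 6 for WT tumor against spleen (from 15) and 1 for the interaction with tissue (from 0). Scaling outside ribosomal and mitochondrial genes gave 0 in unsplit tumor and 2 in spleen, no trend gave 0 in unsplit tumor, and pseudocount 0.5 gave 2 in spleen. For WT Trm against nonTrm, pseudocount 5 gave 1 and voom, chosen after seeing the data, 2 (from 0).

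Leaving out 1 library at a time gave 1 to 9 calls at day 11, 0 to 1 in unsplit tumor, 0 to 14 in Trm, 0 to 1 in nonTrm, 0 to 1 and 0 to 3 for Trm against nonTrm in WT and VHL-deficient cells, 4 to 17 and 1 to 10 for tumor against spleen, and 0 to 8 for the interaction with subset. In groups of 2 this left a single library. For the interaction with subset, the highest count came with VHL-deficient nonTrm replicate 2 as the only library of its group. The labels do not say whether replicate numbers pair libraries. Deviations of same-numbered libraries correlated between -0.391 and 0.271 (mirror values in groups of 2), so they were treated as sharing a number only. A replicate block gave 4 calls at day 11, 1 in unsplit tumor, 1 in spleen, 8 in Trm, 12 and 6 for tumor against spleen, and 0 elsewhere. A count test on the recovered reads was not run. Depth limits the class: 272 to 1590 reads per library were spread over 30 genes.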

Other observations

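The genes that did not reach the filter added little. The 34 replication-dependent genes below it held 8 to 80 reads per library together, against 272 to 1590 for the 30 above it. Among the variants below it, H1fx was at 0 in every library, H2afy2 had 14 reads in all and H3f3aos, an antisense transcript at H3f3a, had 21.

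By protein class, the replication-dependent reads were spread unevenly. Summed scaled counts per library ran from 192 to 1249 for H1, 58.4 to 368 for H2A, 36.9 to 150 for H2B, 14.4 to 136 for H3 and 33.5 to 281 for H4. In WT day 11 replicate 2 the neutrophil list summed to 728 scaled counts, with Elane at 277, against at most 13.6 in any other library; its part in the day 11 values was not tested.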
